A study of Mus musculus with 38 samples.

Results

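Accessible chromatin was examined at 8 mouse genes that encode receptors and signalling adaptors first known from natural killer (NK) cells: the adaptors Fcer1g and Tyrobp, and the receptors Klrg1, Klrd1, Klrc1, Klrc2, Klrk1 and Klrb1c. The measurements were ATAC-seq libraries, in which the transposase Tn5 cuts open chromatin and reads pile up into peaks, of CD8+ T cells from tumours and spleens of young and aged mice. A peak was assigned to a gene when that gene's body was the nearest among mm10 protein-coding genes and lay within 100 kb. This gave 106 of 242933 peaks: 45 of 73610 in the table of endogenous tumour CD8+ T cells and 61 of 169323 in the table of transferred-receptor (OT-1) and naive cells. Klrb1c had 11 and 13 of these peaks, Klrg1 7 and 16, Klrd1 6 and 9, Klrk1 6 and 7, Klrc1 6 and 5, Klrc2 4 and 5, Tyrobp 4 and 5, and Fcer1g 1 and 1. Of the peaks, 43 of 45 (95.6%) in the first table and 43 of 61 (70.5%) in the second overlapped a peak of the other table, whatever its gene.

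In these families, lectin-like receptors at the cell surface either recruit phosphatases through an inhibitory motif in their own tail or couple to a small adaptor that carries an activating motif. Effector and repeatedly stimulated CD8+ T cells are known to take up several of these receptors, which then raise or lower the threshold set by the T cell receptor. Open chromatin at a gene is a measure of its regulatory DNA and not of its transcript or protein.

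All mice were labelled wild type C57BL/6J. Young mice were 10 to 12 weeks old and aged mice 64 to 68 weeks old. Tumour cells were sorted on day 15 from B16-OVA tumours, a melanoma line that expresses ovalbumin. The endogenous libraries held all CD8+ T cells of a gate: progenitor-like Tprog (Slamf6+Tim-3-; 4 young and 3 aged libraries), terminal Tterm (Slamf6-Tim-3+; 5 young and 3 aged) and, from aged mice only, Slamf6-Tim-3- cells, called Tadys in the labels and age-associated dysfunctional there (2 libraries). OT-1 libraries held CD8+ T cells with a transgenic receptor for ovalbumin, from young (2 Tprog, 7 Tterm) and aged (2 Tprog, 6 Tterm) donors or hosts; the labels do not say which of them the age describes. Naive CD8+ T cells came from spleens of young and aged mice (2 libraries each); how they were gated is not given. Tumour libraries were pools of 5000 to 50000 cells, for which 2 to 3 replicates are named. Several groups hold more libraries than that, and whether the further ones repeat the same pools is not given. The labels give no pool size for naive cells. The p-values measure the spread between libraries, which may in part be technical.

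Reads in peaks ranged from 4.64 to 87.6 megareads per endogenous library and from 6.80 to 27.7 per library of the second table. All 8 genes of a CD8+ T cell marker list had peaks in both tables. Marker lists of other cells also had peaks in the endogenous table: 9 of 10 NK cell, 10 of 12 myeloid, 4 of 6 B cell and 6 of 7 melanoma genes. The genes of these lists without one were Ncr1 (NK cells), Lyz2 and Adgre1 (myeloid cells), Cd79a and Ms4a1 (B cells) and Tyr (melanocytes). In the OT-1 and naive table every gene of these lists had a peak (10 NK cell, 12 myeloid, 6 B cell and 7 melanoma genes). Those of Ncr1, Adgre1, Ms4a1 and Tyr all had means under 10 reads there. Aged OT-1 Tprog replicate 1 stood apart: it correlated with replicate 2 at r = 0.73 on the log scale, its normalized total was 7.92 megareads against 11.6, and its level at CD8 markers was 109 against 215 reads per kb. The 2 Tadys libraries correlated at r = 0.86. Values without these libraries are given where leaving 1 out changed a call or moved a value by over 1.5 times.

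Promoter windows in RefSeq (GRCm38.p6, the mm10 build; 250 bases before to 50 after a start, all on the minus strand) were at hand for 5 of the 8 genes. The 4 that overlap a member peak called in 1 or more comparisons are shown, 5′ to 3′, because the results below return to these peaks. Capitals mark matches to 7 motifs searched on both strands (T-box AGGTGTG, Runx TGTGGTT, Ets CAGGAAG, AP-1 TGANTCA, TCF/LEF CTTTGAT, NFAT GGAAAA and E box CANCTG). The windows were chr6:129623815-129624114 (Klrk1), chr6:129678924-129679223 (Klrc1, a start inside the annotated gene body), chr6:129660507-129660806 (Klrc2) and chr6:128788592-128788891 (Klrb1c).
Klrk1: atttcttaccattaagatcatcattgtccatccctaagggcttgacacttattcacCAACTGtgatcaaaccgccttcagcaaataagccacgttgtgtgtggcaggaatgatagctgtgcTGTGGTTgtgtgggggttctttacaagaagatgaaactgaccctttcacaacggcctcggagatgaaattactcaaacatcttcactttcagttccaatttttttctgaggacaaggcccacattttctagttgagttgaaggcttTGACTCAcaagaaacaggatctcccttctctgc
Klrc1: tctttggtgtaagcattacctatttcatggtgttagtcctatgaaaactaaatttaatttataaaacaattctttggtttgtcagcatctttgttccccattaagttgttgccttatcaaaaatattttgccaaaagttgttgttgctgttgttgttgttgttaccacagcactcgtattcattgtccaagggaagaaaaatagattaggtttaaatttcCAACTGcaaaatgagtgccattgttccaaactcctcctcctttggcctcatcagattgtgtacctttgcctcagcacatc
Klrc2: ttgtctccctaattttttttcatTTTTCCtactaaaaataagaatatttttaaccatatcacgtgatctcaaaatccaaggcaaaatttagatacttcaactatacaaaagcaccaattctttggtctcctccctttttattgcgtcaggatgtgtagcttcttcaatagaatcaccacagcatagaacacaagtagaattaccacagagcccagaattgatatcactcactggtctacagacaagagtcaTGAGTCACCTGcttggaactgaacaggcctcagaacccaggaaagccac
Klrb1c: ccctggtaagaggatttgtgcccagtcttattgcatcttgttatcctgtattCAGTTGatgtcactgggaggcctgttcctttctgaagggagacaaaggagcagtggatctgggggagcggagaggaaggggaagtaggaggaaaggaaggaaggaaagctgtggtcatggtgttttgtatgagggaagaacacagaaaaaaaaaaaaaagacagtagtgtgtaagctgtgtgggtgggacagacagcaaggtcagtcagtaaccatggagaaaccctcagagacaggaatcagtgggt
Klrk1 held an E box (positions -194 to -189 from the start), a Runx match (-129 to -123) and an AP-1 match (18 to 24). Klrc2 held an NFAT match on the minus strand (-227 to -222) and an AP-1 match (2 to 8) whose last bases overlap an E box (7 to 12). Klrc1 and Klrb1c held 1 E box each, at -30 to -25 and, on the minus strand, at -198 to -193. Among 32851 RefSeq promoter windows of the same length, 51.4% held an E box, 23.4% an NFAT, 7.81% an AP-1 and 5.27% a Runx match. The Ets, T-box and TCF/LEF letters, held by 13.3%, 5.84% and 3.73% of windows, were not in these 4. The Klrc2 window was 96.3% identical (289 of 300 bases) to that of its neighbour Klrc3, so reads at the Klrc2 promoter may have been placed at either copy; against the Klrc1 window the identity was 34.1% (99 of 290 aligned bases).

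The first question was how the genes differ between terminal and progenitor-like cells. In young endogenous cells the peak within Fcer1g had the largest rise in Tterm, and most Klrg1 peaks were higher. Klrb1c, Klrd1, Klrc1 and Klrc2 each had 1 or more higher peaks, while 1 Klrb1c peak was lower and no Klrk1 peak passed the test. Of 45 member peaks tested, 14 were higher and 1 lower in Tterm (limma, adjusted p under 0.05), against 14.3% higher and 11.3% lower of all peaks. The higher peaks were the 1 of Fcer1g, 5 of 7 of Klrg1, 4 of 11 of Klrb1c, 2 of 6 of Klrc1, 1 of 4 of Klrc2 and 1 of 6 of Klrd1. The median member difference was 0.35 on the log2 scale (log2 of normalized reads plus 1), against -0.01 for all peaks. In aged mice, with 3 libraries a group, 7 were higher and 2 lower, against 6.75% and 5.37% of all peaks, with medians of 0.25 and 0.01. Scaling libraries to equal totals moved the median of all peaks in the young comparison to -0.17 and the calls over all peaks from 10261 higher and 8115 lower to 6025 and 11249; of the members, 10 were then higher and 1 lower.

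**Figure D1:**
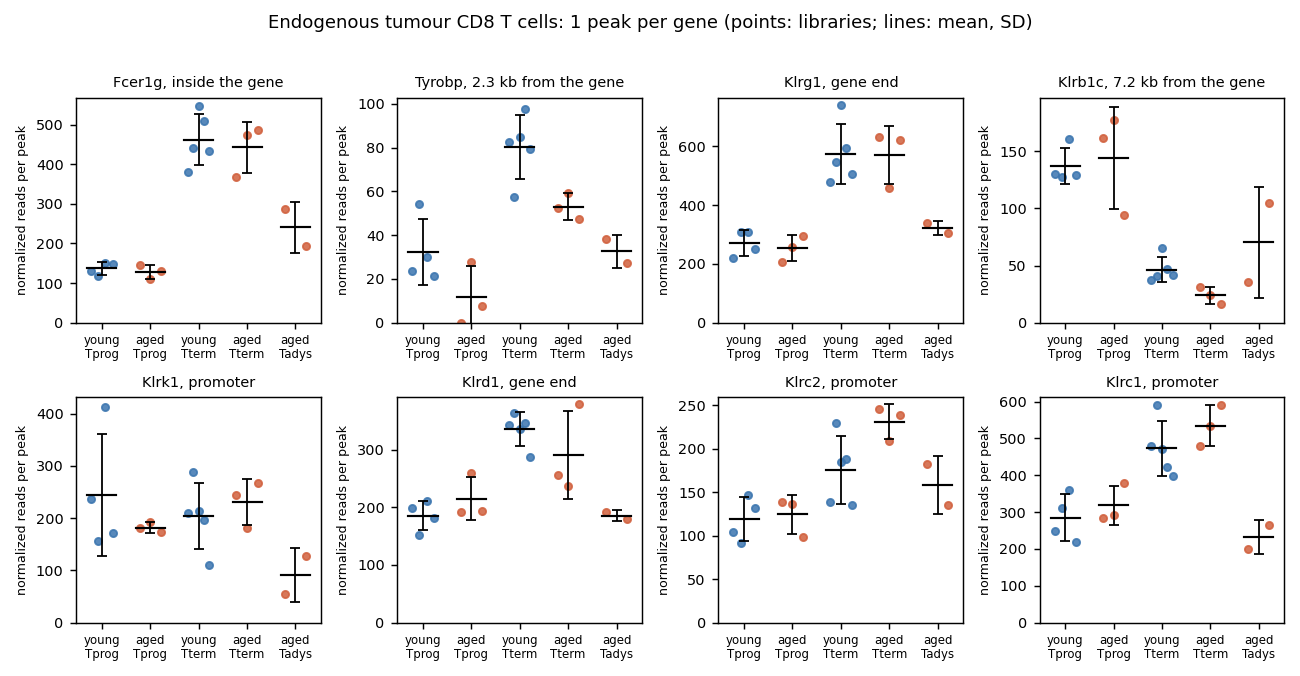
Normalized reads per peak (y axis, linear) at 1 peak of each of the 8 genes in the endogenous libraries of 5 groups (x axis); points are libraries, lines the group mean and SD, blue young and orange aged. At Fcer1g every Tterm library (369 to 546) lies above every Tprog library (110 to 151), and the 2 Tadys libraries (194 and 287) lie between them.

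Fcer1g encodes the Fc receptor gamma chain, an adaptor with an activating motif that serves Fc receptors and several NK receptors. Its 1 endogenous peak (chr1:171231491-171233226, inside the gene) had 130, 118, 151 and 149 normalized reads in the young Tprog libraries and 381, 442, 546, 509 and 434 in young Tterm. In aged mice it had 146, 110 and 130 in Tprog and 369, 475 and 485 in Tterm. Tterm and Tprog libraries did not overlap at either age, and the young and aged libraries of a subset did. The means were 137 ± 16.0 (SD, n = 4) and 462 ± 65.3 (n = 5) in young mice, a log2 difference of 1.74 ± 0.16 (SE; limma adjusted p = 7.75e-09). In aged mice the difference was 1.78 ± 0.20 (adjusted p = 8.44e-07), from 128 ± 18.2 to 443 ± 64.6 (SD, n = 3 each).

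Tyrobp encodes DAP12, the other activating adaptor of the list, with which several NK receptors pair. No peak lay within its body; 1 of its 4 peaks (chr7:30410846-30411520), 2262 bp from the gene, varied between subsets. It had 23.6, 54.3, 30.1 and 21.5 reads in young Tprog and 82.5, 57.5, 85, 97.8 and 79.4 in young Tterm. In aged mice it had 0, 27.6 and 7.48 in Tprog and 52.5, 59.4 and 47.2 in Tterm. All Tterm libraries lay above all Tprog libraries of the same age. Only the aged difference passed the test (3.11 ± 0.67, adjusted p = 0.00208, limma); the young one was 1.36 ± 0.55 (adjusted p = 0.0702). With 1 aged Tprog library at 0, the aged value on the log scale depends on the pseudocount and ranged from 1.79 to 4.21 over the alternatives. The other 3 Tyrobp peaks were called in no endogenous comparison, and at 1 of them, the strongest, the young difference was -0.03 ± 0.14.

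Klrg1 encodes an inhibitory receptor for cadherins that is widely used as a marker of terminally differentiated effector cells. At the gene-end peak chr6:122283556-122285164 the young Tprog libraries had 220, 307, 307 and 250 reads and the young Tterm libraries 480, 546, 739, 593 and 507. The aged Tprog libraries had 208, 259 and 297, and the aged Tterm libraries 630, 458 and 623. Again Tterm lay above Tprog in every library at both ages. The log2 difference was 1.08 ± 0.16 (adjusted p = 7.24e-06) in young and 1.16 ± 0.19 (adjusted p = 0.000108) in aged mice (limma). A peak 10469 bp outside the gene rose from 534 ± 113 (SD, n = 4) to 973 ± 59.0 (n = 5) in young cells (0.89 ± 0.13, adjusted p = 7.61e-06) and by 0.52 ± 0.16 in aged cells (adjusted p = 0.0269). The peak over the opposite gene end (chr6:122268634-122270938) rose by 0.65 ± 0.15 in young cells (adjusted p = 0.00187); its aged difference of 0.54 ± 0.18 had an adjusted p of 0.0515.

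Klrd1 encodes CD94, which forms a receptor for the class Ib molecule Qa-1 with either inhibitory NKG2A (Klrc1) or activating NKG2C (Klrc2). At a gene end of Klrd1 (chr6:129586774-129588136) young Tprog libraries had 199, 152, 211 and 182 reads and young Tterm libraries 343, 365, 337, 347 and 288. The groups did not overlap, and the difference was 0.86 ± 0.17 (limma adjusted p = 0.000271). In aged mice Tprog had 192, 259 and 194 and Tterm 256, 237 and 379, which overlapped (0.42 ± 0.20, adjusted p = 0.204).

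At the Klrc1 promoter peak (chr6:129678288-129679039) young Tprog libraries had 248, 310, 361 and 218 reads and young Tterm libraries 480, 591, 472, 424 and 398. Aged Tprog libraries had 284, 291 and 379, and aged Tterm libraries 479, 534 and 591. Subsets were separate at both ages, by 0.75 ± 0.16 (adjusted p = 0.000863) in young and 0.75 ± 0.20 (adjusted p = 0.00957) in aged mice (limma). The aged call was lost without Tterm replicate 3 (adjusted p = 0.0604). An intragenic Klrc1 peak (chr6:129667952-129668378) had 33.1, 0.919, 18.2 and 16.7 reads in young Tprog and 41.3, 30.3, 34.5, 55.3 and 40 in young Tterm, which overlapped, and its call (1.73 ± 0.60, adjusted p = 0.0335) held in 10 of 16 alternatives. Without Tprog 2, the library at 0.919, the difference was 0.84 (adjusted p = 0.237), and it was also not called without Tterm 1, 4 or 5. At the Klrc2 promoter (chr6:129660084-129660824) young Tprog libraries had 104, 91.9, 147 and 132 reads and young Tterm libraries 139, 230, 185, 189 and 136. These overlapped, and the young call (0.56 ± 0.20, adjusted p = 0.0415) was lost in 7 of 17 alternatives, among them those without Tprog 1, 2 or 4 or Tterm 2, 3 or 4 (adjusted p = 0.0509 to 0.143). The aged libraries were separate, at 138, 137 and 98.9 against 246, 208 and 239 (0.90 ± 0.25, adjusted p = 0.0141). That call held in 11 of 14 alternatives and was lost without Tprog replicate 3 or Tterm replicate 1 or 3.

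Klrk1 encodes NKG2D, an activating receptor for ligands that appear on stressed and transformed cells. None of its 6 peaks differed between Tterm and Tprog at either age. At its promoter peak (chr6:129623368-129624089) young Tprog libraries had 236, 156, 412 and 171 reads and young Tterm libraries 210, 288, 215, 196 and 111. The ranges overlapped, with a difference of -0.21 ± 0.27 (limma adjusted p = 0.617). In aged mice it was 0.32 ± 0.33 (adjusted p = 0.613).

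Klrb1c encodes the NK1.1 antigen, an activating receptor of NK and NKT cells, and its peaks moved in both directions. At an intergenic peak 7202 bp from the gene (chr6:128770783-128771283) young Tprog libraries had 130, 128, 161 and 129 reads and young Tterm libraries 37.5, 40.6, 65.6, 47.0 and 41.8. Aged Tprog libraries had 161, 177 and 93.9, and aged Tterm libraries 31.0, 24.2 and 16.6. Every Tterm library was below every Tprog library. The peak fell by 1.56 ± 0.30 in young (adjusted p = 0.000258) and by 2.53 ± 0.36 in aged mice (adjusted p = 2.14e-05; limma). At the gene-end peak chr6:128789613-128791037 the order was opposite: 61.4, 135, 85.5 and 117 in young Tprog and 204, 169, 250, 270 and 254 in young Tterm (1.23 ± 0.23, adjusted p = 0.000159). Aged cells showed the same direction there (1.12 ± 0.28, adjusted p = 0.00658). Between these, the promoter peak (chr6:128788406-128789034) had 71.7 ± 24.9 (SD, n = 4) in young Tprog and 64.1 ± 24.8 (n = 5) in young Tterm and was called in no endogenous comparison. A further intragenic peak was called lower in aged Tterm (-1.75 ± 0.55, adjusted p = 0.0352), a call kept in 6 of 13 alternatives and lost without Tterm 1 (-1.24, adjusted p = 0.194), Tterm 3 or any 1 of the Tprog libraries.

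Levels of marker lists of other cells were read beside these differences. A list of NK cell markers held Ncr1, Eomes and genes of the Klra, Klre and Klri families, and 9 of its 10 genes had endogenous peaks. It summed to 197 to 227 reads per kb in young Tprog and 173 to 245 in young Tterm libraries. Of its 36 peaks 2 were higher in young Tterm and 5 lower, against 14.3% and 11.3% of all peaks. A myeloid list summed to 199 to 258 and 227 to 267 (4 higher and 9 lower of 33). In aged mice the myeloid list summed to 195 to 200 in Tprog and 219 to 235 in Tterm, with 1 peak higher and 2 lower. The NK list summed to 203 to 232 and 194 to 233 there, with 0 higher and 3 lower, against 6.75% and 5.37% of all peaks. The part of such cells in the member differences was not tested. In pools of cells, fewer cells with an open site and less signal per cell cannot be told apart.

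The effect of age within an endogenous subset was tested next, and whether it differed between subsets. No member peak was called in either. In Tterm the differences, aged minus young, ran from -0.95 to 0.48, and 0 of 45 passed with limma (3 at an unadjusted p under 0.05, and 0 adjusted with edgeR), against 0.00836% of all peaks called in either direction. In Tprog they ran from -2.32 to 1.53, and 0 of 45 passed (7 unadjusted, 0 with edgeR), against 0.166%. The Tprog minimum was the Tyrobp peak that was at 0 in 1 aged library (adjusted p = 0.109). At Fcer1g, aged and young Tterm differed by -0.06 ± 0.18, and at the Klrg1 gene end by -0.005 ± 0.17. The Klrb1c peak 7202 bp away had the lowest Tterm value (-0.95 ± 0.33, adjusted p = 0.505), with no overlap between young and aged libraries. The age-by-subset interaction called 0 of 45 (3 unadjusted, 0 with edgeR) and 0.0% of all peaks. Its estimate was 0.03 ± 0.26 at Fcer1g and 1.75 ± 0.87 at the Tyrobp peak.

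Tadys cells, which lack both sorting markers, were compared with the 2 other aged subsets. Whether these gates were sorted from the same tumours is not known here, and the main fits did not model shared tumours. Against Tterm 9 of 45 member peaks were lower and 1 higher, against 4.23% and 2.06% of all peaks, with a median of -0.55 for the members and -0.03 for all. Under equal totals, 8 were lower and 1 higher, while the calls over all peaks moved from 3037 lower and 1481 higher to 2166 and 1918. The lower peaks were 5 of 7 of Klrg1 and 1 each of Fcer1g, Klrd1, Klrc1 and Klrk1. Against Tprog 3 were higher and 0 lower, against 2.61% and 4.04% of all peaks. Both comparisons use the same 2 Tadys libraries, so their values are set side by side only. The Tadys libraries had 8.51 and 12.1 megareads in peaks. Aged Tterm libraries were all deeper (22.3 to 26.9), and aged Tprog libraries ranged from 4.64 to 27.8. The part of depth in the differences was not tested.

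Fcer1g had 287 and 194 reads in Tadys, below all 3 aged Tterm libraries (369 to 485) and above all 3 aged Tprog libraries (110 to 146). It was lower than Tterm by 0.89 ± 0.22 on the log2 scale (limma adjusted p = 0.0176) and differed from Tprog by 0.88 ± 0.22 (adjusted p = 0.0190). These calls held in 9 and 10 of 13 alternatives. The first was lost without Tadys 2 (-0.62, adjusted p = 0.159), Tterm 2 or Tterm 3, the second without Tadys 1 (0.60, adjusted p = 0.228) or Tprog 2. The Klrc1 promoter peak had 200 and 266 reads against 479 to 591 in aged Tterm (-1.20 ± 0.22, adjusted p = 0.00200), a call kept in all 13 alternatives run. At the Klrk1 promoter, which did not separate Tterm from Tprog, Tadys had 54.1 and 128 reads against 244, 182 and 267 in Tterm (-1.44 ± 0.36, adjusted p = 0.0181; 9 of 13 kept). Without Tadys 1 the Klrk1 difference was -0.83 and not called (adjusted p = 0.264), and it was also not called without Tterm 1 or 3.

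At the 2 gene ends of Klrg1, Tadys had 339 and 305 reads, and 309 and 380, below all aged Tterm libraries (458 to 630, and 546 to 692). The differences were -0.81 ± 0.21 (adjusted p = 0.0228) and -0.86 ± 0.21 (adjusted p = 0.0138), kept in 6 and 10 of 13 alternatives (limma). The first was lost without either Tadys library or Tterm 1 or 3, at -0.73 to -0.88 (adjusted p = 0.0653 to 0.0881), the second without Tadys 1 (-0.71, adjusted p = 0.120) or Tterm 3. The Klrd1 gene-end peak chr6:129597925-129598611 had 96.2 and 85.1 reads against 195, 234 and 160 (-1.09 ± 0.31, adjusted p = 0.0328; 7 of 13 kept), a call lost without either Tadys library (adjusted p = 0.0855 and 0.104) or Tterm 1 or 2. The Klrb1c peak 7202 bp from the gene was the 1 that was higher, at 36.1 and 105 against 16.6 to 31.0 (1.37 ± 0.41, adjusted p = 0.0417; 7 of 13 kept). Without Tadys 2 it was 0.62 (adjusted p = 0.426), and it was also not called without Tterm 2 or 3. The Klrb1c gene end had 250 and 144 reads against 88.9 to 99.9 in aged Tprog (1.02 ± 0.31, adjusted p = 0.0453; 8 of 13 kept). Without Tadys 1 it was 0.62 (adjusted p = 0.377), and without any 1 of the Tprog libraries it was not called either. The third peak called against Tprog was the Tyrobp one, with 38.1 and 27.3 reads against 0 to 27.6 (2.42 ± 0.75, adjusted p = 0.0494; 4 of 13 kept). One Tadys library lay inside that range, and without Tprog 1, the library at 0, the difference was 1.10 (adjusted p = 0.192). Over all members the count against Tterm fell from 10 to between 3 and 7 when 1 library was left out: 3 without Tterm 3, and 5 without Tadys 1 or Tterm 1. The count against Tprog went from 3 to 0 without Tadys 1, 1 without Tprog 2 or 3, and 6 without Tadys 2.

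**Figure D2:**
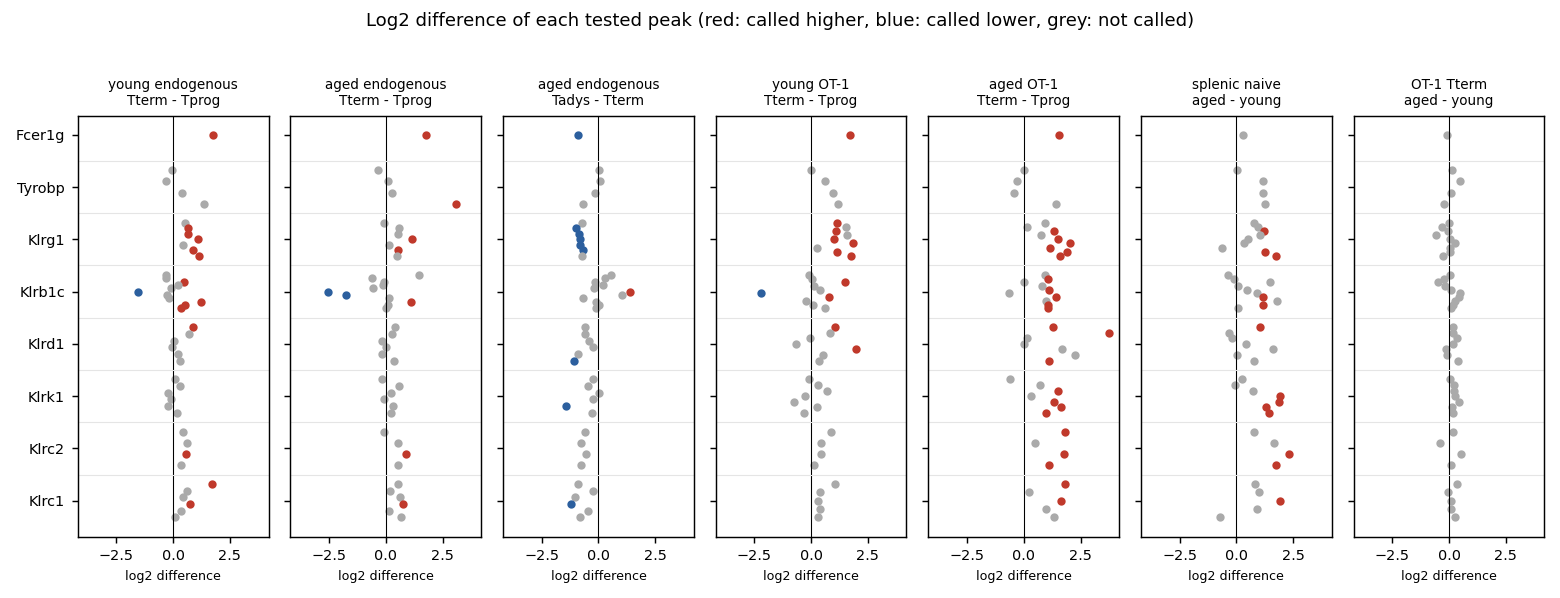
Log2 differences (x axis, log2 of normalized reads plus 1) of every tested member peak, by gene (rows), in 7 comparisons (columns); red points were called higher, blue called lower and grey not called. The 2 young Tterm against Tprog columns hold 14 and 11 red points, the naive column 13, and the OT-1 Tterm age column none.

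The same subset contrast in OT-1 cells holds the T cell receptor constant and shares no library with the endogenous table. In young OT-1 cells, 11 of 47 tested members were higher in Tterm and 1 lower, against 4.06% and 3.57% of all peaks (medians 0.41 and -0.01). They were 6 of 9 peaks of Klrg1, 2 each of Klrb1c and Klrd1, and the Fcer1g peak; the lower one was of Klrb1c. The 14 members under the filter had means of 2.32 to 9.77 reads. Each Tprog library weighed heavily: fewer members were called without either of them, and 15 were called within batches 4 and 5 alone. The share over all peaks is not set beside these refits. Scaling to equal totals gave 10 and 1, and moved the median of all peaks to -0.13. Of 41 pairs of overlapping member peaks tested in both tables, 34 (82.9%) had the same sign in young endogenous and OT-1 cells, against 75.7% of all such pairs. A wide OT-1 peak can stand in more than 1 pair. The 9 called in both in young cells (Fcer1g, 5 of Klrg1, 2 of Klrb1c and 1 of Klrd1) had the same sign, as did 4986 of 4989 such pairs over all peaks. In aged cells 29 of 41 pairs (70.7%) had the same sign, against 61.6% of all pairs. The 6 called in both had the same sign, as did 4123 of 4158 over all peaks.

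In the OT-1 table the Fcer1g peak (chr1:171231637-171233802) had 93.7 and 69.5 reads in young Tprog and 214 to 326 (median 273) in the 7 young Tterm libraries. Aged Tprog had 87.3 and 88.7, and aged Tterm 223 to 294 (median 249). The Tterm libraries lay above Tprog throughout. The young difference was 1.71 ± 0.20 (limma adjusted p = 5.73e-06), and 1.67 within batches 4 and 5. The aged difference was 1.54 ± 0.24 (adjusted p = 0.000135), and 1.53 without the Tprog library that stood apart (adjusted p = 0.000615). Within batch 6 alone, with 1 aged Tterm library, it was 1.33 and not called (adjusted p = 0.959).

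The Klrg1 peaks showed the same order. The peak 10543 bp outside Klrg1 (chr6:122293376-122294693) had 232 and 239 reads in young Tprog and 467 to 681 (median 510) in young Tterm (1.13 ± 0.23, adjusted p = 0.00255). That call was lost when either Tprog library was left out. A second peak, 12364 bp outside Klrg1 (chr6:122295197-122296051), had 44.6 and 30.6 against 80.6 to 151 (median 138; 1.74 ± 0.26, adjusted p = 8.75e-05) and was kept in all 19 alternatives run. At the gene end (chr6:122282225-122285171) the values were 126 and 153 against 242 to 326 (median 293; 1.01 ± 0.23, adjusted p = 0.00479; limma). The gene-end call was lost without Tprog 1. All 3 peaks separated the subsets in every young library.

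The Klrd1 gene-end peak (chr6:129586714-129588381) had 110 and 103 reads in young OT-1 Tprog and 182 to 259 (median 226) in Tterm (1.06 ± 0.20, limma adjusted p = 0.00119). The Klrb1c promoter peak (chr6:128788318-128790967), which in this table is wide and also covers the gene end, had 85.9 and 76.6 against 119 to 174 (median 145; 0.77 ± 0.22, adjusted p = 0.0319; 13 of 19 kept). The Klrb1c peak 7134 bp from the gene (chr6:128770743-128771351) was again lower, at 59.1 and 67.2 in Tprog against 7.02 to 28.1 (median 12.4) in Tterm (-2.19 ± 0.47, adjusted p = 0.00374). The Klrd1 call and the call 7134 bp from Klrb1c were lost without Tprog 2. The Klrb1c promoter call was lost without either Tprog library or without Tterm 3 or 5. The Tprog and Tterm libraries were separate at each of the 3 peaks. No Klrk1, Klrc1, Klrc2 or Tyrobp peak was called. The lowest p among them was at an intragenic Klrc1 peak (1.04 ± 0.33, adjusted p = 0.0555), chosen after its values were seen.

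In aged OT-1 cells 24 of 47 were higher in Tterm and 0 lower, against 11.3% and 3.39% of all peaks, with medians of 1.10 and 0.15. They included 4 of 7 Klrk1, 3 of 4 Klrc2 and 2 of 5 Klrc1 peaks, genes with no call in young OT-1 cells; whether the subset difference changed with age in OT-1 cells was not tested. The median of all peaks moved to -0.25 under equal totals, and the calls over all peaks from 9477 higher and 2850 lower to 5745 and 6047, with 18 members higher and 0 lower. The count was 10 without aged Tprog replicate 1 and 0 within batch 6, which holds both aged Tprog libraries but 1 aged Tterm library. At the Klrk1 promoter peak (chr6:129623410-129624344) the 2 aged Tprog libraries had 23.3 and 74.1 reads, against 107 to 149 (median 125) in aged Tterm. The difference of 1.66 ± 0.37 (adjusted p = 0.00379) became 0.85 and was not called without replicate 1 (adjusted p = 0.156). At the Klrc2 promoter peak (chr6:129660027-129660714) the libraries had 19.8 and 93.1 against 101 to 194 (median 114), and without replicate 1 the difference was 0.67 (adjusted p = 0.459). The Klrd1 gene end kept its call without it (1.49, adjusted p = 0.000537; 119 and 92.2 against 217 to 279, median 255), as did the Klrg1 peak 10543 bp away (1.32, adjusted p = 0.00145).

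Between young and aged OT-1 Tterm, with 7 and 6 libraries, no member was called: 0 of 47 with limma (4 at an unadjusted p under 0.05, 0 adjusted with edgeR), against 0.266% of all peaks. Differences ran from -0.59 to 0.54. The lowest p was at the Klrb1c promoter peak, with 119 to 174 (median 145) in young and 152 to 261 (median 197) in aged libraries (0.45 ± 0.15, unadjusted p = 0.00687, adjusted p = 0.346). At Fcer1g the difference was -0.11 ± 0.14, and at the Klrk1 promoter 0.14 ± 0.21.

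Naive cells showed an age difference at several of the genes. In aged naive libraries the Klrc1, Klrc2, Klrk1, Klrd1, Klrg1 and Klrb1c loci had 1 or more peaks that were higher than in young naive libraries. No peak of Fcer1g or Tyrobp was called, but all 4 Tyrobp peaks had positive differences, with a median of 1.17 and 3 at an unadjusted p under 0.05. Of 47 members tested, 13 were higher and 0 lower, against 4.08% and 1.16% of all peaks. They were 4 of 7 Klrk1 peaks, 3 of 9 of Klrg1, 2 of 4 of Klrc2, 2 of 10 of Klrb1c, 1 of 5 of Klrc1 and 1 of 7 of Klrd1. The differences ran from -0.70 to 2.32, 40 of 47 were above 0, and the median was 0.91 against 0.11 for all peaks. Equal totals moved the median of all peaks to -0.12 and the calls over all peaks from 3430 higher and 976 lower to 2862 and 1437; of the members, 12 were then higher and 1 lower. With 2 libraries a group the count fell to between 3 and 7 when 1 was left out: 3 without aged replicate 1, 7 without aged replicate 2, 6 without young replicate 1 and 5 without young replicate 2. The lone library is then assumed to vary like those of the other groups.

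The Klrc1 promoter peak (chr6:129678342-129679148) had 36.0 and 50.5 reads in young naive and 180 and 152 in aged naive libraries. The difference was 1.93 ± 0.32 (limma adjusted p = 0.000608), kept in all 13 alternatives run. The Klrc2 gene-end peak (chr6:129661271-129663414) had 59.8 and 49.7 against 187 and 180 (1.73 ± 0.28, adjusted p = 0.000459), also kept in all 13. Both pairs were far apart next to the gap within a pair. The Klrc2 promoter peak, with its Klrc3-like sequence, had 19.9 and 22.5 against 113 and 105 (2.32 ± 0.48, adjusted p = 0.00433) and lost its call without aged replicate 1 or young replicate 1.

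At the Klrd1 gene end the naive values were 79.7 and 74.6 in young and 153 and 166 in aged libraries (1.04 ± 0.24, limma adjusted p = 0.0107; 9 of 13 kept). An intragenic Klrd1 peak (chr6:129594043-129595296) had 72.6 and 62.5 against 225 and 187 and was not called (1.59 ± 0.63, adjusted p = 0.161). Klrk1 was called at its promoter, with 27.0 and 15.2 against 58.0 and 47.1 (1.32 ± 0.38, adjusted p = 0.0393), a call kept in 4 of 13 alternatives. Aged and young libraries did not overlap at these 3 peaks, but the calls at the Klrd1 gene end and the Klrk1 promoter were lost when any 1 of the 4 naive libraries was left out (adjusted p = 0.0790 to 0.124 and 0.0538 to 0.452). The largest Klrk1 difference, 1.93, was at an intragenic peak (chr6:129618946-129619560). Its call was kept in 10 of 13 alternatives and lost without either aged naive library or young naive 2. A Klrk1 peak 1946 bp beyond the gene body (chr6:129625849-129628156), outside the naming rule given below, had 87.4 and 76.2 against 247 and 205 (1.45 ± 0.31, adjusted p = 0.00525).

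At Klrg1 the peak 10543 bp outside the gene had 75.2 and 94.6 reads in young naive and 219 and 193 in aged naive libraries (1.28 ± 0.28, limma adjusted p = 0.00732; 11 of 13 kept). The peak 12364 bp outside had 19.3 and 23.3 against 65.5 and 84.3 (1.76 ± 0.32, adjusted p = 0.00107). The Klrb1c promoter peak had 73.3 and 61.7 against 148 and 154 (1.15 ± 0.27, adjusted p = 0.0105; 9 of 13 kept) and was not called without any 1 of the naive libraries (adjusted p = 0.0560 to 0.153). The Fcer1g peak was not called, and the Tyrobp peak chr7:30402135-30402992, 10790 bp from the gene, had 48.2 and 39.3 against 84.8 and 113 (1.15 ± 0.36, adjusted p = 0.0615).

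Marker levels moved with the naive comparison. The list of 10 NK cell markers summed to 80.7 to 81.1 reads per kb in young naive and 118 to 122 in aged naive libraries. Of its 42 tested peaks 5 were higher in aged cells and 0 lower, at Eomes, Klra3 and Klre1, and its median difference was 0.51. Apart from Ncr1 and Eomes its genes are of NK receptor families, so the list is no separate measure of NK cells. Eomes, which memory CD8+ T cells also express, had 93.0 to 94.1 and 134 to 135 reads per kb. Ncr1, which defines NK cells, had 2 peaks, neither of which passed the filter, at 7.31 to 13.3 reads per kb in young naive and 4.88 to 6.27 in aged naive libraries. A list of naive T cell genes stood at 169 to 170 and 161 to 173, and CD8 genes at 141 to 146 and 162 to 166. Of 94 tested naive-list peaks, 1 (Tcf7) was higher in aged cells and 3 (Ccr7) lower, against 4.08% and 1.16% of all peaks. The median of the naive list was -0.15, against 0.11 for all peaks. The part of memory-like or other cells in the naive difference was not tested.

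**Figure D3:**
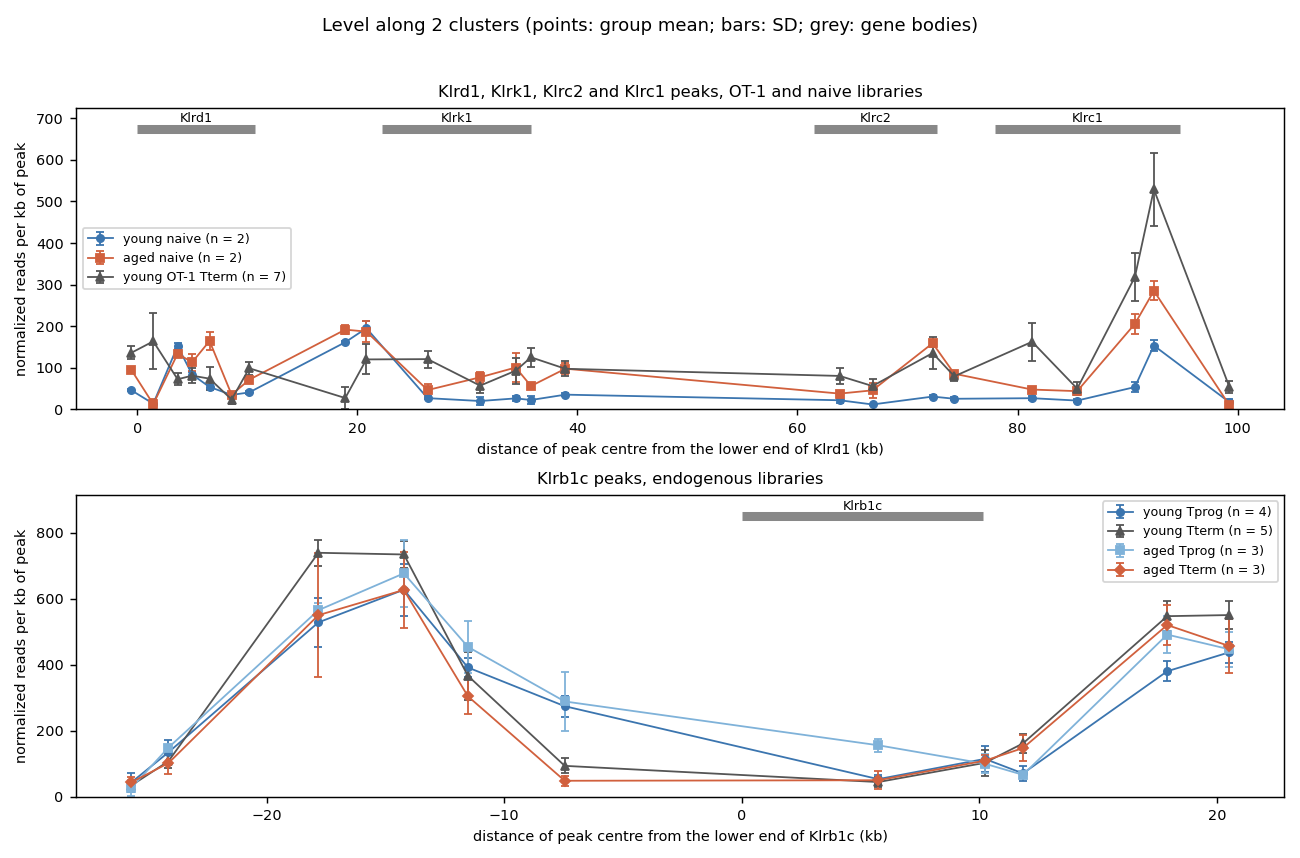
Normalized reads per kb of peak (y axis) along 2 stretches of the NK gene complex, plotted by distance in kb from the lower-coordinate end of Klrd1 (top; Klrd1, Klrk1, Klrc2 and Klrc1 in naive cells and young OT-1 Tterm) and of Klrb1c (bottom; endogenous Tprog and Tterm); points are group means and bars SD over libraries. In the bottom panel Tprog lies above Tterm at the peak 7202 bp outside Klrb1c, opposite in order to the gene-end peak at the other side of the gene.

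OT-1 tumour cells were then set against naive cells. All naive libraries were of batch 3 and no tumour library was. The batch, the receptor, the tissue and the activation state thus cannot be told apart in these 3 comparisons. The naive libraries are shared with the age comparison above. Young Tterm had 28 of 47 members higher and 6 lower than young naive, against 22.4% and 17.9% of all peaks, with medians of 1.47 and -0.06. Young Tprog had 15 higher and 8 lower, against 15.0% and 9.15%, and aged Tterm 17 higher and 8 lower than aged naive, against 21.4% and 26.3%, with a member median of 0.10. Equal totals changed the calls over all peaks for young Tterm from 18877 higher and 15020 lower to 17018 and 21934. Leaving out 1 library took the count for young Tprog from 23 to between 11 (without young naive 1) and 15, and that for aged Tterm from 25 to as few as 13 without either aged naive library.

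At the Klrc1 promoter young Tterm had 172 to 312 reads (median 261) and young Tprog 193 and 197, against 36.0 and 50.5 in young naive. These differences were 2.49 ± 0.27 (adjusted p = 9.61e-08) and 2.17 ± 0.32 (adjusted p = 3.11e-05; limma). The Klrk1 promoter had 98.4 to 148 (median 110) in Tterm, 94.8 and 94.3 in Tprog, and 27.0 and 15.2 in naive cells (2.42 ± 0.31, adjusted p = 1.3e-06, and 2.16 ± 0.38, adjusted p = 0.000183). At both promoters the 2 tumour subsets lay close together and above the naive libraries. Klrg1 was graded: 10543 bp outside the gene the means were 84.9 ± 13.7 (SD, n = 2) in naive, 236 ± 5.15 (n = 2) in Tprog and 531 ± 71.7 (n = 7) in Tterm. Fcer1g was higher than naive in Tterm (1.58 ± 0.20, adjusted p = 1.31e-06), at 88.7 ± 7.27 (SD, n = 2) against 272 ± 34.0 (n = 7); young Tprog, at 81.6 ± 17.1 (n = 2), overlapped naive.

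Several peaks were lower in tumour cells. The intergenic peak 3016 bp from Klrk1 (chr6:129606691-129607307) had 100.3 and 98.6 reads in young naive, 113 and 123 in aged naive, 17.8 and 8.25 in young Tprog and 4.44 to 50.8 (median 11.3) in young Tterm. It was lower than naive by 3.04 ± 0.65 in young Tterm (adjusted p = 0.000552) and by 2.93 ± 0.79 in young Tprog (adjusted p = 0.00809) on the log2 scale. The young Tprog call held in 10 of 13 alternatives and was lost without either young naive library or without Tprog 2. In aged Tterm, at 5.30 to 24.1 (median 12.6), the peak fell by 3.26 ± 0.65 (adjusted p = 0.000287; limma). This is opposite to the Klrk1 promoter, so that the locus did not move as a whole. The Tyrobp peak 10790 bp from its gene had 14.5 and 21.2 in young Tprog against 48.2 and 39.3 in naive cells (-1.26 ± 0.36, adjusted p = 0.0120). That call was lost without young naive 1 or Tprog 1. Aged Tterm had 34.5 to 45.3 (median 36.7) at this Tyrobp peak, against 84.8 and 113 in aged naive cells (-1.36 ± 0.30, adjusted p = 0.000732).

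A comparison added after these values were seen tested whether the age difference of naive cells differed from that of OT-1 Tterm. It called 4 of 47 members with a larger difference in naive cells and 0 smaller, against 1.48% and 0.551% of all peaks. They were 2 Klrg1 peaks, the Klrc2 gene end and the Klrc1 promoter. Under equal totals the calls over all peaks went from 1241 and 463 to 1184 and 754.

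Summed over all peaks of a gene and divided by their length, levels can be set between genes. In endogenous Tterm of young mice Klrc1 had 416 ± 69.6 normalized reads per kb (SD, n = 5), Klrb1c 394 ± 11.7, Klrg1 369 ± 37.3, Fcer1g 266 ± 37.6, Klrd1 204 ± 23.2, Klrk1 189 ± 29.4, Klrc2 155 ± 25.6 and Tyrobp 153 ± 8.86. The order of groups differed by gene. For Fcer1g, young (266) and aged Tterm (255 ± 37.3, n = 3) overlapped, both lay above Tadys (139 ± 37.5, n = 2), and Tadys lay above young (79.0 ± 9.23, n = 4) and aged Tprog (74.0 ± 10.5, n = 3), which overlapped. For Klrg1, young and aged Tterm (362 ± 29.7) overlapped and lay above aged Tprog (251 ± 14.6), young Tprog (218 ± 19.1) and Tadys (208 ± 7.14), whose neighbours overlapped. For Klrd1 the 4 other groups, from 204 in young Tterm through 186 ± 7.18 and 171 ± 27.5 to 161 ± 20.6 in young Tprog, overlapped in sequence, and Tadys lay below them at 120 ± 8.07. For Klrc1, Klrc2, Klrk1 and Tyrobp every neighbour in the order overlapped, from 416 to 263 ± 40.9, 180 ± 14.6 to 112 ± 21.8, 189 to 149 ± 49.7 and 184 ± 17.1 to 147 ± 14. Klrc1, Klrc2 and Klrk1 were lowest in Tadys, and Tyrobp in young Tprog. For Klrb1c young Tterm lay above aged Tprog (352 ± 27.1), the next in order, but overlapped aged Tterm (333 ± 55.3); the other neighbours overlapped, down to young Tprog (322 ± 24.2).

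In the OT-1 and naive table, normalized apart, young naive cells were lowest for Klrg1 (46.1 ± 2.14, n = 2), Klrc1 (62.9 ± 5.58) and Klrc2 (24.1 ± 1.94). Their ranges did not overlap the next group, which was aged OT-1 Tprog for Klrg1 (57.3 ± 5.59) and Klrc2 (45.3 ± 26.1) and aged naive for Klrc1 (131 ± 9.68). Aged naive cells were highest for Klrk1 (116 ± 15.9), Klrd1 (101 ± 6.16), Klrb1c (233 ± 2.06) and Tyrobp (135 ± 3.23). At Klrk1 and Klrd1 they overlapped aged Tterm (113 ± 12.5 and 99.5 ± 10.1, n = 6), while at Klrb1c and Tyrobp they lay above young naive (197 ± 3.35 and 112 ± 2.89), the next group. Fcer1g had 126 ± 15.7 in young and 116 ± 11.3 in aged Tterm, which overlapped, and 37.7 ± 7.89 to 50.0 ± 4.38 in the other 4 groups, all below Tterm.

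Other genes of the pathway were read from 3 lists. The first, of other NK receptor genes, holds every gene of the NK cell marker list but Eomes. Peaks of those genes are thus counted in both lists. Of 31 other NK receptor genes, 30 had tested peaks; of 110 endogenous peaks 20 were higher and 7 lower in young Tterm, against the 14.3% and 11.3% of all peaks given above, with a median of 0.13. The lowest p in each direction were at Cd244a, the 2B4 receptor (611 ± 58.5 in Tterm against 245 ± 39.5; 1.32 ± 0.14, limma adjusted p = 4.39e-08), and at Cd226, the activating receptor DNAM-1 (-2.12 ± 0.25, adjusted p = 4e-07). Against Tterm, 2 peaks of this list were higher and 10 lower in Tadys (2.06% and 4.23% of all peaks), with a median of -0.37. In naive cells 11 of its 134 peaks were higher in aged libraries and 0 lower, against 4.08% and 1.16% of all peaks (median 0.45), with the lowest p at Lilrb4a, an inhibitory receptor (365 ± 47.8 against 33.4 ± 6.40; 3.42 ± 0.34, adjusted p = 5.61e-06).

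All 20 genes of a list of adaptors and signalling proteins had peaks. Of 214 endogenous peaks 38 were higher and 31 lower in young Tterm, against 14.3% and 11.3% of all peaks. Lat2, a membrane adaptor related to Lat, had 401 ± 67.6 reads in Tterm against 103 ± 11.3 in Tprog (1.94 ± 0.17, limma adjusted p = 1.89e-09), and a peak of Cd247, the zeta chain of the T cell receptor, was lower (-1.97 ± 0.19, adjusted p = 1.5e-08). In OT-1 cells Lat2 was again higher in young Tterm (2.18 ± 0.25, adjusted p = 3.69e-06), and Lat itself was lower (-2.20 ± 0.24, adjusted p = 1.69e-06). In naive cells 19 of 254 peaks were higher and 4 lower with age, against 4.08% and 1.16%, the lowest p among the higher ones being at Fyn, a Src-family kinase (936 ± 79.8 against 229 ± 6.64; 2.02 ± 0.25, adjusted p = 3.52e-05) and among the lower ones at Syk, the kinase that binds the adaptors' motif (13.4 ± 7 against 130 ± 4.61; -3.28 ± 0.64, adjusted p = 0.00247).

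Of 14 ligand genes 10 had tested peaks. In young endogenous cells 8 of 57 peaks were higher in Tterm and 4 lower, a share of higher peaks near the 14.3% of all peaks (11.3% lower). They included a peak of Cdh1, E-cadherin, which Klrg1 binds (0.91 ± 0.13, limma adjusted p = 6.94e-06), and one of H60b, a ligand of NKG2D (-1.31 ± 0.27, adjusted p = 0.00058). In naive cells 5 of 62 were higher with age and 0 lower, against 4.08% and 1.16%, with the lowest p at H60c (135 ± 14.9 against 17.5 ± 9.29; 2.97 ± 0.48, adjusted p = 0.000403).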

How the data were processed

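The study measured ATAC-seq in 38 libraries of sorted mouse CD8+ T cells, sequenced as read pairs of 50 bp. Per the submitters' processing notes, Bowtie2 2.2.9, Picard 2.8.0, SAMtools 1.3.1, MACS2 2.1.1, DESeq2 1.28.1 and mm10 were used; the sources used here do not give read shifting or peak merging. The authors deposited signal values, reads per peak divided by 1 size factor per library, in 2 tables that were normalized apart and are not tested against each other. At least 99.98% of values in each library were whole reads (tolerance 0.02), which gave the depths and the count test. Groups came from the labels.

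Peaks whose mean in a table reached 10 were tested (71756 and 84091) with limma 3.58.1 in R 4.3.3 on log2 of signal plus a pseudocount of 1, all groups in 1 model, with a variance trend and, in the OT-1 and naive table, a term for batch 6. Benjamini-Hochberg adjustment ran over all tested peaks, and called means an adjusted p under 0.05. Batches 1 and 2, and batches 4 and 5, share 1 label each. Fits were tested on simulated data. Alternatives were edgeR 4.0.16 on whole reads, other pseudocounts, filters and scalings, a replicate block, only the groups compared, no batch term, within-batch fits and leaving out each library.

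Named were, per gene, the promoter or nearest gene-end peak and the peak of lowest p, and per comparison up to 3 called peaks of largest difference each way; in the other lists, the member of lowest p each way. Without a strand for Klrg1, Klrd1 and Tyrobp, their gene-end peaks were used (for Tyrobp, the nearest peaks). The genes and lists were chosen with earlier results of these data known. Gene ends are within 1 kb. Figures were drawn with matplotlib 3.10.9 in Python 3.11.15.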

Additional observations from a re-analysis of the deposited data

Results flagged for a closer look

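In 4 of 78 groups of 4 to 10 libraries at the named peaks, 1 library lay far from the others by Dixon's criterion, where chance gives about 1 in 20. The Klrb1c peak 7202 bp from the gene had 161 reads in young endogenous Tprog replicate 3, against 128 to 130 in the other 3. Young OT-1 Tterm replicate 6 was high at 2 Klrg1 peaks: 122 reads at chr6:122290093-122290356, against 34.4 to 57.7 in the other 6, and 681 reads at the peak 10543 bp from the gene, against 467 to 540. Young OT-1 Tterm replicate 7 had 50.8 reads at the Klrk1 peak 3016 bp from the gene, against 4.44 to 19.9.

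At 4 peaks the age difference, aged minus young, was larger in naive cells than in OT-1 Tterm by a test of the difference itself, added after the data were seen (limma, adjusted over all peaks). The difference between them was 2.04 ± 0.36 at the Klrg1 peak 12364 bp from the gene (adjusted p = 0.00352), where all 26 alternatives kept the call. It was 1.63 ± 0.32 at the Klrc2 gene end (adjusted p = 0.00722) and 1.83 ± 0.37 at the Klrc1 promoter (adjusted p = 0.00863), each kept in 24 of 26. It was 1.22 ± 0.33 at the Klrg1 peak 10543 bp from the gene (adjusted p = 0.0475), kept in 10 of 26. Naive cells and Tterm were of different batches, and the part of the batch was not tested.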

How the results depend on the processing

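Over 108 named differences and their alternatives, 1556 refits kept the call, 219 lost it and 0 changed sign. Among the counts of called members, those for Tadys against Tterm went from 10 to 6 with quantile scaling and 1 with only the groups compared. Tadys against Tprog went from 3 to 0 with only the groups compared. Aged OT-1 Tterm against Tprog went from 24 to 14 with a replicate block, 0 with only the groups compared and 0 within batch 6. Naive age went from 13 to 29 with only the groups compared. The naive-by-Tterm age difference went from 4 to 7 with quantile scaling and 10 with only the groups compared. Leaving out 1 library gave 12 to 17 for young endogenous Tterm against Tprog (15 with all), 4 to 9 for aged (9), 3 to 7 for Tadys against Tterm and 0 to 6 against Tprog, 5 to 13 for young OT-1 (12), 10 to 32 for aged OT-1, 3 to 7 for naive age, 27 to 35 for young Tterm against naive (34), 11 to 15 for young Tprog against naive (23), 13 to 27 for aged Tterm against naive (25) and 1 to 5 for the added comparison. It gave 4 in aged endogenous cells without aged Tterm 3, 5 in young OT-1 without either Tprog, and for the added comparison 1 without aged naive 1 and 2 without either young naive library. For endogenous Tprog age it gave 0 to 1, the 1 without aged Tprog 2, and 0 to 0 for the other 3 comparisons with no call. Shares over all peaks are not set beside these member counts or those below with the replicate block, so a shift is not shown to be particular to the members. With quantile scaling, calls over all peaks moved from 3037 lower and 1481 higher to 2509 and 1630 for Tadys against Tterm. For the added comparison they moved from 1241 higher and 463 lower to 1653 and 856. The cause of these shifts was not tested. Tadys, OT-1 Tprog and naive groups had 2 libraries each, which limits the precision, and a member that missed the threshold may still differ.

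Whether libraries of the same replicate number came from the same tumours is not known here. Same-numbered pairs of different groups had a median correlation of -0.03 (3 of 27 over 0.1) and, in the second table, -0.003 (5 of 34). These pairs include young with aged libraries, so the medians cannot decide whether subsets of the same tumours were paired. With the replicate block the counts were 18 for young endogenous, 9 for aged, 8 and 3 for Tadys, 10 for young OT-1, 12 for naive age and 3 for the added comparison. Against naive cells they were 32, 21 and 20.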

Other observations

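Peaks on other chromosomes were ranked by the correlation of their log values with the lead peak of each gene over the 17 endogenous libraries, among 54394 peaks with a mean of 30 or more; the libraries share gates, ages and depths, so these values only describe likeness. The Fcer1g peak was most like peaks nearest to Fbn1, 2900026A02Rik and Glb1 (r = 0.97 each), and the Klrg1 gene-end peak like ones of Elk3, Cluap1 and Cdk6 (0.97 each). For the Tyrobp peak they were of Map2k4 (0.95), 2900026A02Rik (0.94) and Pik3r1 (0.93). For Klrc1 they were of Epdr1 (0.95), Stk39 and Camk2d (0.94 each), and for the Klrb1c peak 7202 bp from the gene of Itga6, Fasl and Utrn (0.94 each). For Klrk1 they were of Dusp10, Il6st (0.93 each) and Mettl21c (0.92), for Klrd1 of Glipr1, Trps1 (0.92 each) and Cdca7l (0.91), and for Klrc2 of Tmco5 (0.93), Actr3 (0.91) and Anxa9 (0.90).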
